A study of Mus musculus with 6 samples.

Results

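S100 proteins are small calcium sensors of vertebrates. Most members form dimers, bind calcium through paired EF-hand loops and then take up a target protein, and several are also released and act on receptors of neighbouring cells. In muscle tissue S100a1 is known from the fibres, S100b from Schwann cells and activated myoblasts, S100a8 and S100a9 from infiltrating neutrophils and monocytes, and S100a4 and S100a6 from fibroblasts and proliferating cells. The 10 members described here are S100a1, S100a4, S100a6, S100a8, S100a9, S100a10, S100a11, S100a13, S100a16 and S100b, taken by gene name from the non-control spots of the arrays. Each had 1 probe, so they take 10 of 41174 non-control probes and 10 of 28307 gene names, and all 10 symbols matched the RefSeq gene table.

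RNA came from satellite cells, the stem cells of skeletal muscle, in proliferation and from female mice. The Magic-F1 group held 3 samples of the genotype Magic-F1+/+, that is, homozygous for an engineered factor derived from hepatocyte growth factor that activates its receptor MET. The control group held 3 samples with MLC3F in their titles, an abbreviation that the labels leave unexplained. The labels name neither the promoter of the transgene nor the age of the mice, and no probe was used as a check of the transgene. The samples are called biological triplicates without separate animals or cultures being named, so p-values measure no more than how far these samples differ, possibly for technical reasons.

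Each RNA was labelled with Cy3 and measured on its own Agilent array. The arrays' 75th percentile signals were 341 to 356 on the Magic-F1 arrays and 275 to 292 on the control arrays, between 49.2% and 52.0% of spots were well above background, and 0 were saturated. Values below are normalised log2 signals, the log2 of the processed signal less the log2 of that array's 75th percentile, so that 0 is the 75th percentile of the array. Probes of different genes bind with different strength, so no probe's level is set against another's. The summed levels of marker lists given below add the linear signals of their probes and are weighted towards the brightest.

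The cells labelled satellite cells differed between the groups in a list of muscle markers that runs from Pax7 to fibre genes such as Acta1. Of 11 tested muscle markers 11 were lower in Magic-F1 cells and 0 higher, and the summed level of the list, in units of the array's 75th percentile signal, was 155 to 160 on the Magic-F1 arrays and 1335 to 1413 on the control arrays. The control sum is mostly that of Acta1, Actc1, Myog and Chrna1, at log2 8.86, 8.06, 7.88 and 7.62 in control cells. Pax7, the transcription factor that defines satellite cells, had 0 of 3 Magic-F1 arrays well above background and was at least 4.63-fold lower (adjusted p = 0.000398). In control cells Pax7 was faint too, at −3.10. Myf5 was not well above background in either group. Macrophage markers ran the other way, with 13 of 14 higher, 1 lower and a summed level of 1426 to 1493 on the Magic-F1 arrays against 433 to 460 on the control arrays. The lower marker was Lyz2, at −0.30 by its brightest probe, while its other tested probe was higher at 2.97. That brightest probe, at log2 8.48 in control cells, makes up most of the control sum. Among 11 fibroblast markers 3 were higher and 7 lower, with summed levels of 746 to 760 in Magic-F1 cells and 1078 to 1102 in control cells. Of 8 endothelial markers 2 were higher and 6 lower, with sums of 16.6 to 18.1 on the Magic-F1 arrays and 9.48 to 9.84 on the control arrays. The Magic-F1 sum is mostly that of 1 probe, Vwf, which was higher (log2 change 3.58), while Pecam1, Cdh5, Cldn5, Emcn, Tie1 and Robo4 were lower. The part of these shifts in the S100 results was not tested, and RNA of whole samples cannot tell fewer cells of a type from less RNA per cell.

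Most S100 members were lower in Magic-F1 cells, and the sizes of the changes differed widely. All 10 member probes passed limma's test at an adjusted p of 0.05, against 87.7% of the 21190 probes tested on the array, so passing the test is no particular feature of these genes. Lower levels were called for 8 members, against 46.4% of all tested probes, and higher levels for 2, S100a1 and S100a13, against 41.3%. Magic-F1 and control values lay apart without overlap for all 10 members, which was also true of 89.1% of all probes. The median log2 change of the members was −1.05, beside −0.10 over all tested probes. Changes of at least 2-fold were called for 6 members, 1 higher and 5 lower, while 52.3% of all probes had a called change of that size.

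**Figure D1:**
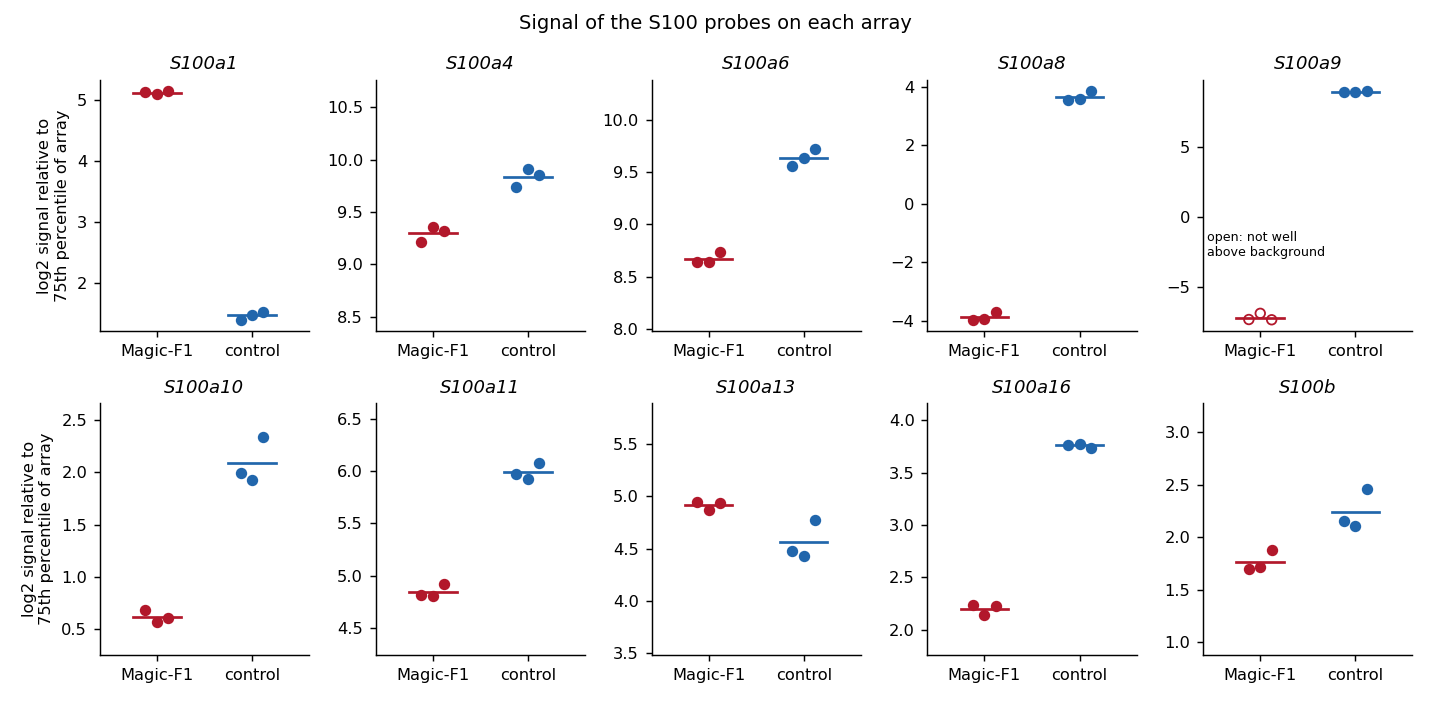
Normalised log2 signal (y axis, log2 of signal relative to the array's 75th percentile) of the 10 S100 probes, with a point for each array, Magic-F1 left and control right, and a line at the mean of 3 arrays. Each panel has its own axis. The 3 Magic-F1 values lie above the control values for S100a1 and S100a13 and below them for the other members, and the open points of S100a9 were not well above background.

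Of the 10 members, 9 lie on chromosome 3 and S100b on chromosome 10. Sequences are shown first for a pair of probes that hold the whole code of a calcium-binding loop. A search of the 3 forward frames of each 60-base probe for the canonical 12-codon pattern of an EF-hand loop found it in 2 of the 10 probes, those of S100a8 (mm9 chr3:90473778-90473837) and S100b (mm9 chr10:75722709-75722768). Probes that hold only part of a loop, such as that of S100a6, are not found this way. The 36 capital letters in each line below are the loop codons, and the signals of these probes therefore report coding sequence of the 2 genes. Both are probe sequences as deposited, 5′ to 3′.
S100a8 probe: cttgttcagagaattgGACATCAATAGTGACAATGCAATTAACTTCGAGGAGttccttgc
S100b probe: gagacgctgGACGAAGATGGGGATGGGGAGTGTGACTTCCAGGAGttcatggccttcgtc

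The calgranulins S100a8 and S100a9 had by far the largest changes of the members, and both were lower in Magic-F1 cells. Their proteins pair as calprotectin, which makes up much of the cytosolic protein of neutrophils, binds calcium, zinc and manganese, and signals through Tlr4 and the receptor Ager. The S100a9 probe (mm9 chr3:90496585-90496644) had processed signals of 2.17, 2.87 and 2.05 on Magic-F1 arrays 1, 2 and 3, and of 136249, 130133 and 136188 on control arrays 1, 2 and 3. On the normalised log2 scale these were −7.36, −6.92 and −7.38 in Magic-F1 cells, and 8.87, 8.86 and 8.95 in control cells. None of the 3 Magic-F1 arrays was well above background, while all 3 control arrays were. S100a9 was at least 18835-fold lower in Magic-F1 cells (limma adjusted p = 2.03e-08), a bound taken against the lowest signals that counted as well above background. The fitted log2 change of −16.11 is no bound, since it rests on signals near 0. With normexp and an offset of 50 it was −11.46 (2812-fold). The added offset lies above the lowest measured signals, so this value falls below the bound by construction, and the bound holds for the processed signals alone.

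S100a8 kept a faint signal in Magic-F1 cells. Processed signals were 23.0, 22.6 and 26.2 on Magic-F1 arrays 1, 2 and 3, against 3428, 3316 and 3949 on control arrays 1, 2 and 3. Normalised log2 values were −3.96, −3.94 and −3.70 in Magic-F1 cells and 3.55, 3.57 and 3.85 in control cells. All 6 arrays were well above background, and the groups lay far apart compared with the spread within them. The mean was −3.86 ± 0.14 in Magic-F1 cells and 3.66 ± 0.16 in control cells (SD, n = 3 each), a log2 change of −7.52 (SE 0.11, limma adjusted p = 4.10e-08) or 184-fold lower. The change was −7.53 within slide 1 and −7.51 within slide 2. Among the 18146 probes well above background on all 6 arrays, this was number 5 in the order of falls. Under normexp with an offset of 50 the log2 change was −5.58 (47.7-fold). That offset exceeds the faint Magic-F1 signals and shrinks the fold by construction.

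Neutrophil markers moved with the calgranulins. Of 12 tested markers 11 were lower and 1 higher in Magic-F1 cells, and the median of their log2 changes was −8.98, or −7.16 with the 6 tested genes that have only a bound placed at it. All tested genes had a median of −0.15, with 40.6% higher and 47.7% lower. The summed level of the list was 3.69 to 3.87 on the Magic-F1 arrays and 153 to 171 on the control arrays. Myeloperoxidase (Mpo), the peroxidase of neutrophil granules, was at −4.36 ± 0.07 in Magic-F1 cells and 5.88 ± 0.11 in control cells (SD, n = 3 each). Cathepsin G (Ctsg), a granule protease, was at −4.35 ± 0.14 in Magic-F1 cells and 4.99 ± 0.10 in control cells. The markers Elane, Cxcr2, Chil3, Camp, Ltf, Ms4a3, Lcn2, Retnlg and Ngp were at background level throughout the Magic-F1 arrays. Of these, Elane, Lcn2 and Retnlg were not among the 12 tested markers, so no change is given for them. Csf3r, the receptor of granulocyte colony-stimulating factor, was the exception, at log2 3.46 higher in Magic-F1 cells (adjusted p = 1.00e-07). The part of these cells in the S100a8 and S100a9 values was not tested.

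Listed genes whose products are known to receive or use calprotectin changed in both directions. Calprotectin carries arachidonic acid to the phagocyte NADPH oxidase, whose membrane subunits are Cybb and Cyba. Cybb was at 2.86 ± 0.07 in Magic-F1 cells and −0.90 ± 0.05 in control cells (log2 change 3.76, adjusted p = 4.52e-08), and its second probe changed by 3.28. Cyba changed by 1.84 (adjusted p = 5.57e-07). These oxidase genes are also made by macrophages, whose markers were higher in the same samples. What macrophages add to the Cybb and Cyba values was not tested. Cd36, a fatty acid scavenger receptor, was higher by both its probes, at log2 3.35 and 3.94. Alcam, a cell adhesion molecule reported to bind S100A8 and S100A9 in human cells, changed by 3.32, whereas Bsg (basigin), another such receptor of human cells, was lower at −0.83. Neither Ager nor Tlr4 was tested, since their probes were not well above background on any array of either group.

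The promoter windows of the 2 calgranulins are shown because these genes lie next to each other and fell together more than the other members. Windows run from 250 bases before to 50 after the annotated start (RefSeq, GRCm38.p6), 5′ to 3′ on the gene's strand, at chr3:90668821-90669120 on the + strand for S100a8 and chr3:90695672-90695971 on the − strand for S100a9. The 3 motifs were searched on both strands and are in capitals, TATAAA (the TATA box), TTGCNNAA (a core bound by C/EBP factors) and GAGGAAGT (a core bound by PU.1).
S100a8 promoter: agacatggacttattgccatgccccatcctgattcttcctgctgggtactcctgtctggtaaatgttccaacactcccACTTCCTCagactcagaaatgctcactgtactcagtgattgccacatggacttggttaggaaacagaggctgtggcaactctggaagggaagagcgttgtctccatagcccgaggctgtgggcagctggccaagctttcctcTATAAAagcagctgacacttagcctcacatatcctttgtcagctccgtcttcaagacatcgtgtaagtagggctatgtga
S100a9 promoter: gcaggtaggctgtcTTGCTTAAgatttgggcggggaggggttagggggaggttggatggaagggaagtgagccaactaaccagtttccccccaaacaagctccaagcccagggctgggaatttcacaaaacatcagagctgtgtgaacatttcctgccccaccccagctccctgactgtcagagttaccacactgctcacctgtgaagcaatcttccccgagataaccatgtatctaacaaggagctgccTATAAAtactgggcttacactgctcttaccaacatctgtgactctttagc

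The S100a8 window held TATAAA 30 bases before the start and GAGGAAGT on the opposite strand. The S100a9 window held TATAAA at the annotated start itself and TTGCNNAA 236 bases before it. Over 32851 promoter windows of the same length, 13.6% held TATAAA, 10.8% TTGCNNAA and 3.2% GAGGAAGT on either strand. Windows of 9 members were matched. That of S100a4 held TATAAA 31 bases before the start and GAGGAAGT on the opposite strand, and those of S100a1, S100a6, S100a11, S100a13, S100a16 and S100b held none of the 3 letter strings. A match describes the letters in the window and no binding was measured.

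S100a1, the calcium sensor of heart and skeletal muscle that binds the ryanodine receptor and the calcium pump of the sarcoplasmic reticulum, was the member with the largest rise. Its probe (mm9 chr3:90315133-90315192) had processed signals of 12417, 11797 and 12028 on Magic-F1 arrays 1, 2 and 3, and of 768, 777 and 790 on control arrays 1, 2 and 3. The normalised log2 values were 5.12, 5.09 and 5.14 in Magic-F1 cells and 1.39, 1.48 and 1.52 in control cells. Every Magic-F1 array was far above every control array, and the spread within either group was small. The means were 5.12 ± 0.03 in Magic-F1 cells and 1.47 ± 0.07 in control cells (SD, n = 3 each). The log2 change was 3.65 (SE 0.05, limma adjusted p = 3.69e-08), or 12.6-fold higher, with 3.67 within slide 1 and 3.61 within slide 2. It stood at number 422 in the order of rises among the 18146 probes measured on all arrays.

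Of the muscle genes S100a1 is known to work with, Ryr1 and Pygm were lower in Magic-F1 cells. Ryr1, the calcium release channel of skeletal muscle, was at 1.53 ± 0.05 in Magic-F1 cells and 2.30 ± 0.02 in control cells (log2 change −0.78, adjusted p = 9.32e-06), and its second probe changed by −0.76. Pygm, the muscle glycogen phosphorylase, was at −1.57 ± 0.05 in Magic-F1 cells and 0.06 ± 0.07 in control cells (log2 change −1.63, adjusted p = 8.21e-07). Atp2a2, the calcium pump SERCA2, changed by −0.74 by its brightest probe (adjusted p = 0.00298), but its other probes disagreed, at −1.25 and 0.49, so no direction holds for the gene as a whole. The cardiac channel Ryr2 was not well above background in either group. The 11 muscle markers were all lower (median log2 change −3.34).

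S100a13, which is known to help export the signal-less factors Fgf1 and interleukin-1 alpha (Il1a), lies beside S100a1 and was the only other member that was higher. Normalised log2 values were 4.94, 4.86 and 4.94 on Magic-F1 arrays 1, 2 and 3, against 4.48, 4.43 and 4.78 on control arrays 1, 2 and 3. The groups did not overlap, but control array 3 came close to the Magic-F1 arrays. S100a13 averaged 4.91 ± 0.04 in Magic-F1 cells and 4.56 ± 0.19 in control cells (SD, n = 3 each), a log2 change of 0.35 (SE 0.10, 95% interval 0.11 to 0.60, limma adjusted p = 0.0151), or 1.28-fold. The call did not hold in all settings. Within slide 1 the change was 0.31 (adjusted p = 0.073), and without control replicate 1 it was 0.31 (adjusted p = 0.051). Its 60 bases span 8370 bases of the genome (mm9 chr3:90319950-90328319), so the probe crosses a splice junction. Of its cargo, Il1a was at least 9.63-fold lower (adjusted p = 9.02e-05), being at background level on the Magic-F1 arrays, while Fgf1 was not well above background in either group. Nor was Syt1, another gene of the partner list.

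The promoters of the 2 higher members overlap, and for that reason they are shown as a single stretch. The annotated starts lie close together, at 90514330 for S100a1 on the − strand and 90514435 for S100a13 on the + strand, and the genes are read away from each other. The line below is the S100a13 window on the + strand of GRCm38.p6, at chr3:90514185-90514484, and the 204 capital letters (chr3:90514281-90514484) also belong to the S100a1 window.
S100a13 and S100a1 promoter: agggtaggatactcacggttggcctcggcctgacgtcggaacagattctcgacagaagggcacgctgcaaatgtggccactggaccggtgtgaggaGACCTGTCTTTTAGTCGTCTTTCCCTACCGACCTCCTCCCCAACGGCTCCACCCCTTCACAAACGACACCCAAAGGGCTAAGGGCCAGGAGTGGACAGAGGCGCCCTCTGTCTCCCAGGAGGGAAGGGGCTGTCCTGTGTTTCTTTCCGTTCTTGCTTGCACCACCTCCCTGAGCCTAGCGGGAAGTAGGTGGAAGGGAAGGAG

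The 2 genes differed widely in the size of their rise, at 12.6-fold for S100a1 and 1.28-fold for S100a13, although their annotated starts share this stretch.

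S100a4 and S100a6 were bright in both groups and lower in Magic-F1 cells. S100a4, also called metastasin or fibroblast-specific protein, binds non-muscle myosin heavy chain and p53. Its probe (mm9 chr3:90409842-90409902) read 9.21, 9.36 and 9.32 on Magic-F1 arrays 1, 2 and 3, and 9.74, 9.91 and 9.85 on control arrays 1, 2 and 3. The groups did not overlap, at 9.30 ± 0.08 in Magic-F1 cells and 9.84 ± 0.09 in control cells (SD, n = 3 each). The log2 change was −0.54 (SE 0.07, limma adjusted p = 0.000361), or 1.45-fold lower, with −0.53 within slide 1 and −0.55 within slide 2. This change depended on the scaling, since it was −0.17 with quantile normalization and −0.076 when arrays were scaled to the spiked-in transcripts (adjusted p = 0.349). The myosin Myh9 was higher by both probes, at log2 1.22 (adjusted p = 1.54e-05) and 1.94, and Trp53 was lower at −0.57 (adjusted p = 0.00119), with a second probe at 0.04.

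S100a6, or calcyclin, is a marker of proliferating cells and fibroblasts and binds the ubiquitin ligase adaptor Cacybp and the co-chaperone Sugt1. Values were 8.65, 8.64 and 8.73 on Magic-F1 arrays 1, 2 and 3, and 9.56, 9.64 and 9.72 on control arrays 1, 2 and 3 (mm9 chr3:90418160-90418219). The groups were separated by more than the spread within either. S100a6 averaged 8.67 ± 0.05 in Magic-F1 cells and 9.64 ± 0.08 in control cells (SD, n = 3 each), a log2 change of −0.96 (SE 0.06, limma adjusted p = 1.15e-05), or 1.95-fold lower. It was −0.95 within slide 1 and −0.99 within slide 2, and −0.48 with quantile normalization. Cacybp was lower too, at 5.13 ± 0.04 in Magic-F1 cells and 6.95 ± 0.01 in control cells (log2 change −1.82, adjusted p = 2.04e-07). The probes of Sugt1 disagreed, at −1.10, −1.27 and 0.71. Markers of fibroblasts, cells that make both S100a4 and S100a6, were 3 higher and 7 lower of 11 (median −0.22).

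The annexin partners S100a10 and S100a11 were both lower in Magic-F1 cells. S100a10, or p11, is a member that has lost calcium binding and forms a tetramer with annexin A2 (Anxa2) under the plasma membrane. Its values were 0.68, 0.57 and 0.61 on Magic-F1 arrays 1, 2 and 3, against 1.99, 1.93 and 2.34 on control arrays 1, 2 and 3 (mm9 chr3:93368437-93368496). Control array 3 was the highest, and all control arrays were well above the Magic-F1 arrays. The means were 0.62 ± 0.06 in Magic-F1 cells and 2.09 ± 0.22 in control cells (SD, n = 3 each), with a log2 change of −1.46 (SE 0.12, limma adjusted p = 3.45e-05), or 2.76-fold lower. The change was −1.52 within slide 1 and −1.35 within slide 2. Anxa2 was lower by both probes, at −0.86 (adjusted p = 0.000904) and −0.78. Ahnak, the giant scaffold protein that the S100a10 and annexin A2 complex binds, was higher by all 5 of its probes, with log2 changes of 1.04 to 2.08.

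S100a11, or calgizzarin, binds annexins A1, A2 and A6 and takes part in membrane repair and growth control. Its probe gave 4.81, 4.81 and 4.92 on Magic-F1 arrays 1, 2 and 3, and 5.97, 5.92 and 6.08 on control arrays 1, 2 and 3 (mm9 chr3:93330017-93330076). No array of either group came near the other group. S100a11 stood at 4.85 ± 0.06 in Magic-F1 cells and 5.99 ± 0.08 in control cells (SD, n = 3 each), a log2 change of −1.14 (SE 0.06, limma adjusted p = 5.93e-06), or 2.21-fold lower, at −1.16 within slide 1 and −1.11 within slide 2. With quantile normalization the change was −0.97, and scaled to the spiked-in transcripts it was −0.68, both called but under 2-fold. A pseudogene, S100a11-ps, is annotated on chromosome 12, and whether the probe also binds its transcript was not tested. Anxa1 did not pass the test, at 7.05 ± 0.03 in Magic-F1 cells and 6.96 ± 0.07 in control cells (log2 change 0.09, 95% interval −0.04 to 0.23, adjusted p = 0.151). Anxa5 did not pass either, with a log2 change of 0.05 (95% interval −0.06 to 0.17, adjusted p = 0.307). The probes of Anxa6 went opposite ways, at −2.06 and 1.42, and Anxa11 was not well above background in either group.

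S100a16, a widely expressed member with weak calcium binding, had the smallest standard error of the members. Its values were 2.24, 2.14 and 2.22 on Magic-F1 arrays 1, 2 and 3, against 3.76, 3.78 and 3.74 on control arrays 1, 2 and 3. The 3 control values were nearly equal and all lay above the Magic-F1 values. S100a16 averaged 2.20 ± 0.05 in Magic-F1 cells and 3.76 ± 0.02 in control cells (SD, n = 3 each), so the log2 change was −1.56 (SE 0.05, limma adjusted p = 4.46e-07), or 2.95-fold lower. It was −1.52 within slide 1 and −1.63 within slide 2. The probe covers 252 bases of the genome (mm9 chr3:90346048-90346299) and so also crosses a junction.

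S100b, known as a secreted factor of glia and a marker of Schwann cells and adipocytes, had the smallest fall of the members under this scaling, though S100a4 and S100a6 fell less with quantile normalization. Its values were 1.69, 1.71 and 1.87 on Magic-F1 arrays 1, 2 and 3, and 2.15, 2.11 and 2.46 on control arrays 1, 2 and 3. The groups did not overlap, although the highest Magic-F1 array lay near the lowest control array. The means of 1.76 ± 0.10 in Magic-F1 cells and 2.24 ± 0.19 in control cells (SD, n = 3 each) gave a log2 change of −0.48 (SE 0.11, limma adjusted p = 0.00615), or 1.39-fold lower, with −0.52 within slide 1 and −0.39 within slide 2. Scaled to the spiked-in transcripts the change was −0.018 (adjusted p = 0.893). Its partner kinase Stk38 changed by 0.67 (adjusted p = 0.000126).

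Markers of the cell types that make S100b moved in both directions. The 11 tested muscle markers were all lower, as given above. Of 8 tested Schwann cell markers 3 were higher and 5 lower (median log2 change −2.07), and the summed level was 127 to 130 on the Magic-F1 arrays and 68.6 to 76.9 on the control arrays. The transcription factor Sox10 changed by −2.24, while the myelin protein Mbp changed by 5.39, and Gfap and Cdh19 were not well above background in either group. All 8 tested adipocyte markers were higher, with a median of 3.23 and sums of 725 to 764 on the Magic-F1 arrays against 146 to 149 on the control arrays. Lpl, Cfd and Fabp4, at log2 8.21, 7.59 and 7.31 in Magic-F1 cells, make up most of the Magic-F1 sum. Adiponectin (Adipoq) was at 5.44 ± 0.05 in Magic-F1 cells and 2.21 ± 0.11 in control cells (SD, n = 3 each). The part of either cell type in the S100b values was not tested.

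**Figure D2:**
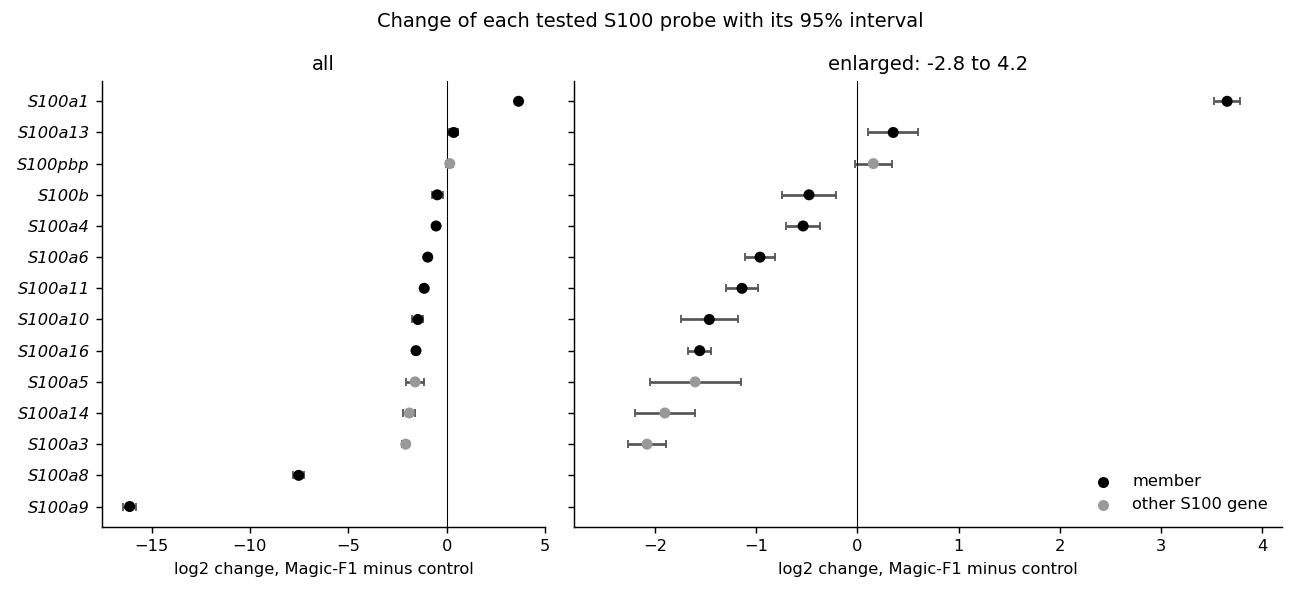
Log2 change, Magic-F1 minus control, of each tested S100 probe (x axis) with its 95% interval from limma, over the whole range (left) and enlarged (right), with members in black and other S100 genes in grey. S100a8 and S100a9 lie far left of the rest at −7.52 and −16.11, S100a1 far right at 3.65, and the other members between −1.56 and 0.35. The S100a9 point is a fitted value near background and no bound.

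Along chromosome 3 the higher members came before the lower ones, and whether position plays a part was not tested. The call of S100a13 did not hold in all settings. Of all tested probes on the array, 41.3% were higher and 46.4% lower. In the order of the probes, S100a1 and S100a13 come first, and the 10 tested S100 genes that follow were all lower, namely S100a14, S100a16, S100a3, S100a4, S100a5, S100a6, S100a8, S100a9, S100a11 and S100a10. The non-members among them were S100a3, with a log2 change of −2.08 (adjusted p = 1.01e-06), S100a5, with −1.60 (adjusted p = 0.000222), and S100a14, with −1.90 (adjusted p = 1.21e-05). S100a3 was at −3.55 ± 0.08 in Magic-F1 cells and −1.47 ± 0.11 in control cells (SD, n = 3 each), and S100a14 at −4.35 ± 0.14 in Magic-F1 cells and −2.44 ± 0.19 in control cells. All 3 were well above background on all 6 arrays. S100a7a, S100g and the filaggrin-type genes Flg, Flg2, Hrnr, Tchh and Rptn were not well above background on any array. S100pbp, which encodes a binding protein of S100P and is not an S100 protein itself, did not pass the test, at 0.90 ± 0.09 in Magic-F1 cells and 0.74 ± 0.10 in control cells (log2 change 0.16, 95% interval −0.03 to 0.34, adjusted p = 0.0895).

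**Figure D3:**
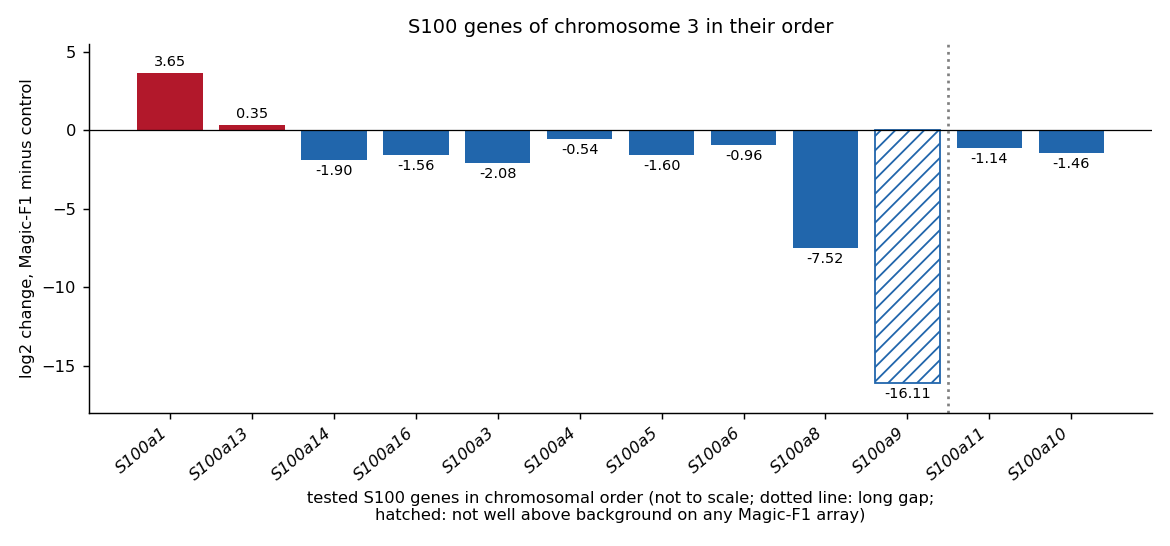
Log2 change, Magic-F1 minus control (y axis), of the 12 tested S100 genes of chromosome 3 in the order of their probes (x axis, not to scale). Bars for S100a1 (3.65) and S100a13 (0.35) rise above 0, and the other 10 fall below it. The hatched bar of S100a9 is a fitted value, since its probe was not well above background in Magic-F1 cells, and the dotted line marks the long gap before S100a11.

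The known partners and receptors of S100 proteins were read as a list of 30 genes, all of them on the array. Of 23 tested, 8 were higher and 13 lower in Magic-F1 cells and 2 did not pass the test. Their median log2 change was −0.74, beside −0.15 over 14908 tested genes. Of those genes 88.3% passed the test, 40.6% being higher and 47.7% lower, so the list's share of calls was near that background. The genes on the higher side included Cybb, Cyba, Cd36, Alcam, Ahnak, Myh9 and Stk38. On the lower side stood, besides those already given, the membrane and cytoskeletal proteins Ezr, at −0.93 (adjusted p = 6.76e-06), Tagln2, at −1.30 (adjusted p = 6.00e-07), and Cav1, at −1.24 (adjusted p = 1.35e-06). Probes of the same gene were called in opposite directions for Anxa6, Sugt1 and Atp2a2.

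**Figure D4:**
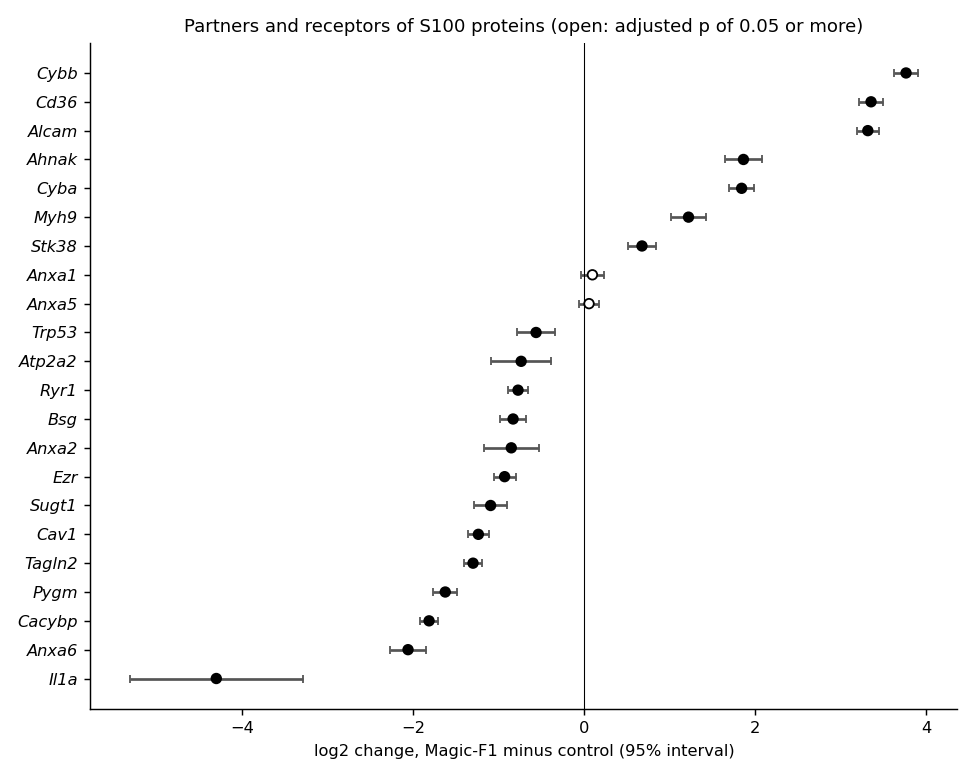
Log2 change, Magic-F1 minus control (x axis), of 22 of the 23 tested partner and receptor genes, each by its brightest tested probe, with the 95% interval from limma. Filled points passed an adjusted p of 0.05 and the open points of Anxa1 and Anxa5 did not. Il1a was not well above background in Magic-F1 cells, so that its point is a fitted value and no bound.

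How far a member's change rests on the scaling differs between the members with large and small changes. With the spike-ins as the scale, all tested probes had a median change of 0.36 in place of −0.10, a shift of 0.46, and the called probes were 11156 higher and 7189 lower, in place of 8749 and 9841. Both scalings subtract a constant from each array, so values relative to that median are the same by construction, with S100a1 at 3.75, S100a13 at 0.45, S100b at −0.38 and S100a4 at −0.44. No member changed direction under any scaling or background correction tried, and the calls of S100a4 and S100b were lost with the spike-ins.

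**Figure D5:**
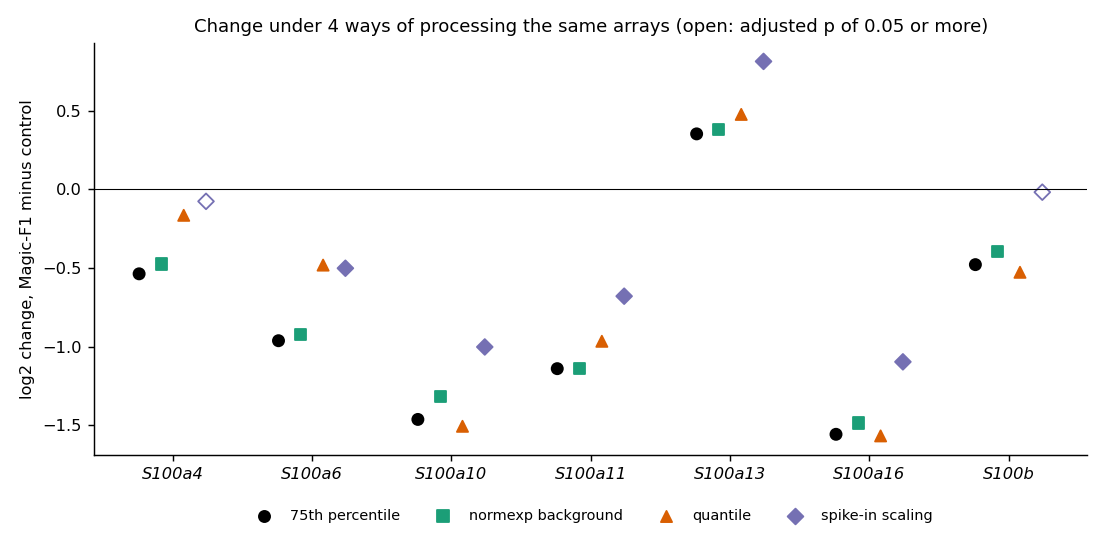
Log2 change, Magic-F1 minus control (y axis), of the 7 members with changes under log2 2 (x axis), under 4 ways of processing the same arrays. Filled symbols passed an adjusted p of 0.05. The spike-in symbols lie above the 75th percentile symbols by the same amount in every member, and those of S100a4 (−0.076) and S100b (−0.018) are open.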

How the data were processed

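Total RNA of 3 Magic-F1 and 3 control samples was measured on single-colour Agilent arrays of design 014868. The deposited intensity of each of 45018 spots is, per the file headers, the processed signal of Agilent's Feature Extraction software, version 10.5.1.1, background-subtracted and not normalized between arrays. A second table of deposited log2 values per spot was used as an alternative. It equals the log2 of the scanner signal for 4 arrays and differs for the arrays numbered 1. The sources used here do not say how those columns were made.

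Control spots were left out and the 59 to 89 outlier spots per array set to missing. From the log2 processed signal, the log2 of the array's 75th percentile of non-control spots was subtracted, and repeat spots were averaged. Tests were run on the 21190 of 41174 probes that were well above background throughout the 3 arrays of the Magic-F1 or the control group. The comparison used lmFit and eBayes of limma 3.58.1 under R 4.3.3, with no term beside the group, 2-sided, adjusted by Benjamini-Hochberg over all tested probes at 0.05. All 10 member probes were tested, and 9 were well above background on all 6 arrays. A listed gene was represented by its brightest tested probe. Folds written as at least N are bounds, used where 0 arrays of a group were well above background. Such a bound sets the other group's mean against, per array, the higher of the probe's own signal and the lowest signal well above background.

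Some listed genes are counted in their lists but not reported here by name. Genes named are the members, the tested annexins and partners, other S100 genes and cell type markers. The members and lists were chosen with earlier results of these data known. Array symbols were updated by RefSeq accession (25097 probes matched, 16077 kept the file's name). Probe positions are the files' (mm9), and promoters are RefSeq's (GRCm38.p6). Slide 1 carried replicates 1 and 3 of either group, and slide 2 carried replicate 2. Residual SDs had a median of 0.093 in log2 units, and precision is limited by the number of arrays. Alternatives covered background (normexp with an offset of 50), scaling, filter, slide, replicate number, variance model, the deposited table and leaving out each array.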

Additional observations from a re-analysis of the deposited data

How the results depend on the processing

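Across 17 alternatives the members gave 169 values, of which 165 kept their direction and their side of the threshold, 4 kept the direction but no longer passed, and 0 turned round. S100a9 was not tested with the filter for all 6 arrays. With spike-in scaling S100a4 was at −0.076 (adjusted p = 0.349) and S100b at −0.018 (adjusted p = 0.893). S100a13 was at 0.31 within slide 1 (adjusted p = 0.073) and at 0.31 without control replicate 1 (adjusted p = 0.051), which left 1 member called higher in each of these settings. In both, fewer arrays entered the fit, but the other fits that left out 1 array kept the call of S100a13. Why it was lost was not tested. Leaving out 1 array at a time left 1 to 2 members called higher, and gave log2 changes of 3.62 to 3.68 for S100a1, −0.59 to −0.50 for S100a4, −1.004 to −0.92 for S100a6, −7.60 to −7.43 for S100a8, −16.26 to −16.03 for S100a9, −1.54 to −1.34 for S100a10, −1.18 to −1.10 for S100a11, 0.29 to 0.46 for S100a13, −1.58 to −1.53 for S100a16 and −0.55 to −0.37 for S100b. Replicates share only a number, and the correlations of same-numbered deviations were −0.003, 0.11 and 0.07. The fit with the replicate number as a block called 18543 probes and all 10 members, with S100a1 at 3.65 and S100a8 at −7.52. The faint Magic-F1 signals of S100a8 and S100a9 limit how well the size of their changes is known.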

Other observations

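In the authors' deposited log2 table, put through the same 75th percentile scaling, the faint S100a9 signal of the Magic-F1 array numbered 1 was at −6.62, whereas the scanner file of that array gave −7.36. For S100a8 on the same array the table gave −3.87 and the scanner file −3.96. For S100a4 the table gave 9.38 and the scanner file 9.21. The 10 members passed the test with that table in the same directions as with the scanner files.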
